A study of Danio rerio with 4 samples.

Results

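Notch ligands, Notch receptors and proneural transcription factors were followed in zebrafish larvae exposed to bisphenol C (BPC, a bisphenol). The genes were taken by symbol: the Delta ligands dla, dlb, dlc and dld, the receptors notch1a, notch1b and notch3, and the proneural factors ascl1a, ascl1b and neurog1. These 10 symbols matched 11 of the 27472 gene rows, because ascl1b stands on 2 rows. RNA was measured in strain AB animals at 72 hours post fertilization (hpf), after treatment begun at 4 hpf with 4 μM BPC (2 libraries, numbered 1 and 3) or with dimethyl sulfoxide (DMSO, the solvent control, 2 libraries, also numbered 1 and 3). The labels give neither the number of larvae in a library nor whether libraries came from separate clutches, so p-values reflect how much these 4 libraries vary and no more, and that variation may be technical.

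Notch signalling works between touching cells. A Delta or Jagged ligand on one cell binds a Notch receptor on its neighbour, the receptor is cut, and its intracellular part joins the DNA-binding protein Rbpj to switch on repressor genes of the her and hey families. In the developing nervous system these repressors keep a progenitor from differentiating, while proneural basic helix-loop-helix (bHLH) factors drive differentiation and switch on Delta genes in the cell that expresses them. The larval brain and retina still contain dividing progenitors, which use these genes. Some of the same genes also act in hair cells, somites, gut and pancreatic endocrine cells and blood vessels.

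Transcripts of this ligand, receptor and proneural set were higher in BPC larvae. Of the 10 genes tested, 8 rose and 0 fell (limma on log2(FPKM + 1), Benjamini-Hochberg adjusted over all 19873 tested genes, threshold 0.05), against 7.06% of all tested genes higher, 17.5% lower and 24.6% called in either direction. FPKM counts fragments scaled by transcript length and by the mapped fragments of the library, so levels can be compared between genes. The largest rise was that of dlb, and the 2 genes not called were dlc and ascl1a. For 9 of the 10 genes both BPC libraries lay above both DMSO libraries, which held for 23.0% of all tested genes. None had both BPC libraries below both DMSO libraries, which held for 45.1% of all tested genes. The median log2 change of the 10 genes was 0.67, against -0.12 for all tested genes. In a bulk library, more cells of a type and more RNA per cell cannot be told apart.

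**Figure D1:**
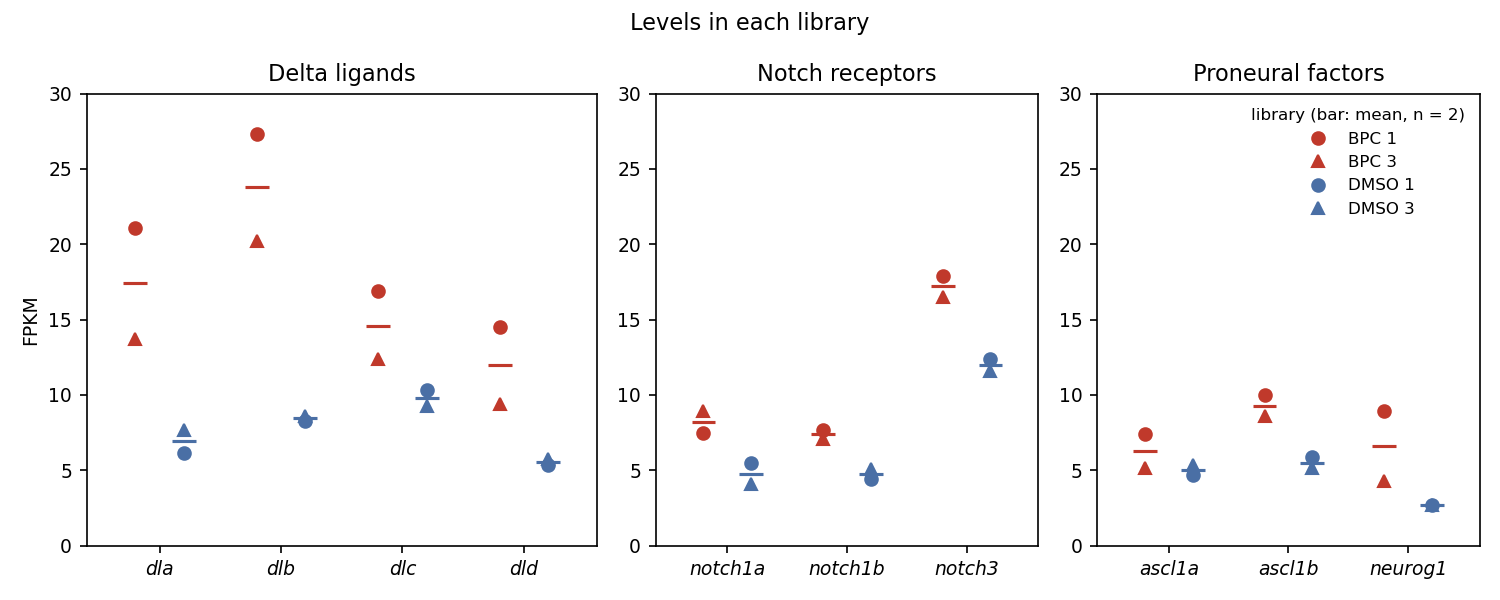
FPKM (vertical axis) of each gene in the libraries BPC 1, BPC 3, DMSO 1 and DMSO 3, by role. Circles are libraries numbered 1, triangles libraries numbered 3 and short bars the mean of 2 libraries. The groups are separate for every gene but ascl1a, and dlb has the highest BPC values, 27.3 and 20.2 FPKM.

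The 4 Delta genes encode membrane ligands that activate Notch on neighbouring cells. The deltaB gene dlb (ENSDARG00000004232), a ligand made by nascent neurons in zebrafish, had 27.3 and 20.2 FPKM in BPC libraries 1 and 3, against 8.30 and 8.63 FPKM in DMSO libraries 1 and 3. The lower BPC value was more than 2 times the higher DMSO value, and the DMSO libraries were close to each other. The mean was 23.8 ± 4.99 FPKM in BPC and 8.47 ± 0.228 FPKM in DMSO (SD, n = 2 each), a ratio of means of 2.81. On the log2(FPKM + 1) scale the change was 1.37 (SE 0.15, limma adjusted p = 0.00377), and 142 of all tested genes had a larger one.

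The deltaA gene dla (ENSDARG00000010791) had 21.1 and 13.7 FPKM in BPC libraries 1 and 3, against 6.17 and 7.70 FPKM in DMSO libraries 1 and 3. Both BPC libraries were above both DMSO libraries, with BPC 1 the highest of all. Its log2 change was 1.19 (SE 0.21, limma adjusted p = 0.0121). The deltaD gene dld (ENSDARG00000020219), which acts in neurogenesis and in somite formation, had 14.5 and 9.41 FPKM in BPC, against 5.34 and 5.74 FPKM in DMSO. Here too the groups did not overlap and BPC 1 was the highest library. The log2 change of dld was 0.96 (SE 0.19, limma adjusted p = 0.0179).

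The deltaC gene dlc (ENSDARG00000002336), a ligand of the somite clock that is also used in the nervous system and vessels, had a smaller change. Its values were 16.9 and 12.4 FPKM in BPC, against 10.3 and 9.27 FPKM in DMSO. The groups were separate, but the gap between BPC 3 and DMSO 1 was smaller than the gap between the 2 BPC libraries. The log2 change was 0.52 with a 95% interval of 0.14 to 0.90 that is not adjusted for the number of genes, and it missed the threshold (limma adjusted p = 0.0573). In both DMSO libraries dlc was the most abundant of the 4 ligands, and in both BPC libraries dlb was.

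The leading Delta transcript was thus dlb in BPC and dlc in DMSO. Together the 4 ligands summed to 79.7 and 55.7 FPKM in BPC, against 30.2 and 31.3 FPKM in DMSO. Of this sum dlc took 21.1 and 22.3% in BPC, against 34.3 and 29.6% in DMSO. The share of dlb was 34.2 and 36.3% in BPC, against 27.5% in each DMSO library. The ratio of dlb to dlc was 1.62 and 1.63 in BPC, against 0.803 and 0.931 in DMSO. Shares of dla and dld overlapped between the groups: dla made up 26.4 and 24.5% in BPC and 20.5 and 24.6% in DMSO, and dld 18.2 and 16.9% in BPC and 17.7 and 18.3% in DMSO. These shares and ratios were not tested, since an exact permutation of 2 against 2 libraries cannot give a two-sided p below 0.333.

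**Figure D2:**
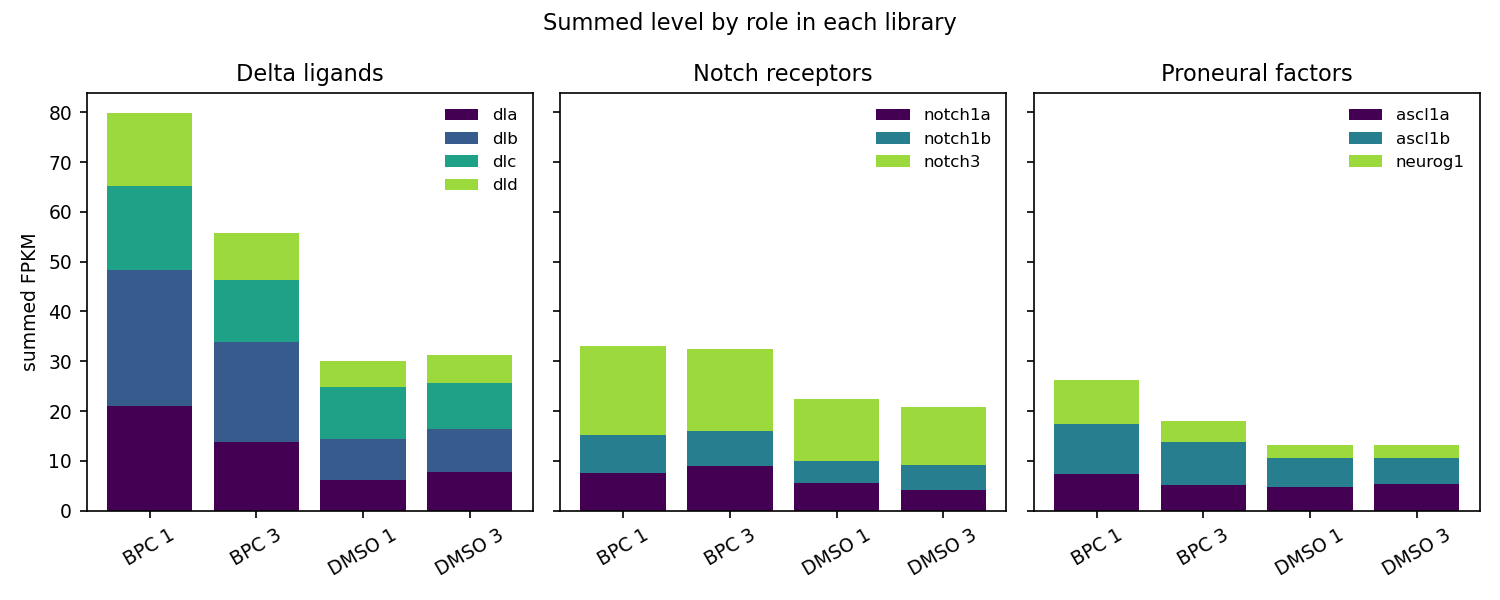
Summed FPKM (vertical axis) of the 4 Delta ligands, the 3 Notch receptors and the 3 proneural factors in each library, with each bar divided by gene. The Delta sum reaches 79.7 FPKM in BPC 1 and 55.7 FPKM in BPC 3, while the receptor sums of the BPC libraries are 33.1 and 32.5 FPKM.

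All 3 receptor genes rose, with log2 changes below dla, dlb and dld but on both sides of dlc (these differences were not tested). The most abundant was notch3 (ENSDARG00000052139), a receptor of progenitors and of the cells around vessels, with 17.9 and 16.5 FPKM in BPC, against 12.4 and 11.6 FPKM in DMSO. The groups were separate and each pair was tight. Its log2 change was 0.49 (SE 0.11, limma adjusted p = 0.0243).

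The paralogues notch1a and notch1b encode the zebrafish Notch1 receptors. For notch1b (ENSDARG00000052094) the values were 7.69 and 7.11 FPKM in BPC, against 4.45 and 5.11 FPKM in DMSO, a log2 change of 0.54 (SE 0.12, limma adjusted p = 0.0260). For notch1a (ENSDARG00000103554) they were 7.48 and 8.94 FPKM in BPC, against 5.47 and 4.06 FPKM in DMSO, a log2 change of 0.68 (SE 0.16, limma adjusted p = 0.0283). Neither gene's groups overlapped. Among the 10 genes notch1a was the exception in the BPC pair, with BPC 3 above BPC 1.

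Receptor transcripts summed to 33.1 and 32.5 FPKM in BPC, against 22.3 and 20.7 FPKM in DMSO, and notch3 made up 54.1 and 50.6% of the sum in BPC, against 55.5 and 55.8% in DMSO. The ratio of summed Delta to summed receptor FPKM was 2.41 and 1.71 in BPC, against 1.35 and 1.51 in DMSO. Both BPC ratios were thus the higher ones, with BPC 1 well above the other 3 libraries. This ratio was not tested.

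Of the 3 proneural genes, ascl1b and neurog1 rose and ascl1a was not called. The factor ascl1b (ENSDARG00000101628), an achaete-scute homologue, had 9.97 and 8.60 FPKM in BPC, against 5.86 and 5.13 FPKM in DMSO. Its groups were well apart, and its log2 change was 0.66 (SE 0.13, limma adjusted p = 0.0164). The other row listed as ascl1b (ENSDARG00000009702) carries the symbol si:ch211-210p4.6 in a table of Ensembl gene names and a membrane annotation in the file. It was listed at 0.178 and 0.0904 FPKM in BPC, against 0.230 and 0.227 FPKM in DMSO, below the minimum of 0.5 FPKM in 2 libraries, and was not tested.

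The paralogue ascl1a (ENSDARG00000038386), which in zebrafish also acts in retinal regeneration and in gut secretory cells, had 7.43 and 5.16 FPKM in BPC, against 4.71 and 5.35 FPKM in DMSO. BPC 3 lay between the 2 DMSO libraries, so the groups overlapped. The log2 change was 0.26 (95% interval -0.16 to 0.68, limma adjusted p = 0.314). Whether ascl1a and ascl1b differ in their change was not tested.

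Neurogenin 1, neurog1 (ENSDARG00000056130), is needed for cranial and dorsal root sensory neurons and for early neurons of the central nervous system. It had 8.91 and 4.27 FPKM in BPC, against 2.67 and 2.73 FPKM in DMSO. Both BPC libraries were above DMSO, but BPC 1 had 2.09 times the level of BPC 3, the largest such ratio among the 10 genes. The summed proneural level was 26.3 and 18.0 FPKM in BPC, against 13.2 FPKM in each DMSO library. The log2 change was 0.97 (SE 0.28), just past the threshold (limma adjusted p = 0.0493). Leaving out BPC 1 gave a log2 change of 0.51 (limma adjusted p = 0.0506), and leaving out BPC 3 gave 1.42 (adjusted p = 0.00370).

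**Figure D3:**
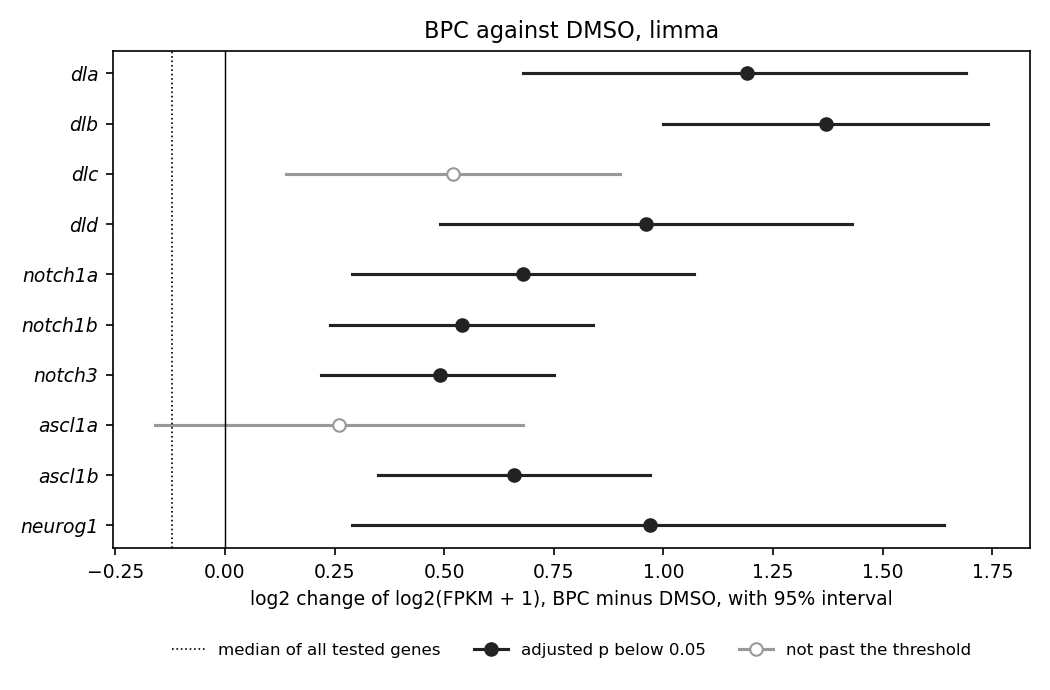
Log2 change of log2(FPKM + 1), BPC minus DMSO, for each gene (horizontal axis) with its 95% interval from limma. Filled points passed the adjusted threshold, open points did not, and the dotted line marks the median over every tested gene, -0.12. The intervals of dla, dlb and dld lie highest together with the wide interval of neurog1, and the interval of ascl1a includes 0.

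The order of levels was not the same in the 2 groups. In BPC the order by mean FPKM was dlb, dla, notch3, dlc, dld, ascl1b, notch1a, notch1b, neurog1 and ascl1a, and each neighbouring pair overlapped between libraries. In DMSO it was notch3, dlc, dlb, dla, dld, ascl1b, ascl1a, notch1b, notch1a and neurog1. There notch3, dlc, dlb and dla were each separate from the next gene, neurog1 was separate below notch1a, and the genes from dld to notch1a overlapped with their neighbours. All 10 were moderately expressed, with a mean FPKM above that of 53.5 (neurog1) to 85.7% (dlb) of tested genes.

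The 2 BPC libraries differed from each other mostly in 1 direction. BPC 1 was above BPC 3 for 9 of the 10 genes, while 54.8% of all tested genes were higher in BPC 1, and the median ratio of BPC 1 to BPC 3 was 1.03 over all tested genes. For dla and dld the ratio of BPC 1 to BPC 3 was 1.54 each. DMSO 1 was above DMSO 3 for 4 of the 10 genes.

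Calls depended on which libraries and which scaling were used. Without DMSO 1 or without DMSO 3, dlb was the one gene of the 10 still called (adjusted p = 0.0455 and 0.0374), while 0.750 and 0.926% of all tested genes were called higher. Scaling each library to the same FPKM sum (TPM scaling) left 4 of the 10 called, dla, dlb, dld and ascl1b, with 3.82% of all tested genes called higher, and lowered the log2 change of notch3 to 0.26 (adjusted p = 0.116). Of the 10 genes, 6 were called without BPC 1 (5.52% of all tested genes higher), 9 without BPC 3 (10.3%), 9 with median centring (12.3%), 9 with quantile normalization (9.80%) and 4 with no filter on low values (2.78%). Without BPC 1, notch1b (adjusted p = 0.0591) and neurog1 lost their calls, and without BPC 3 notch1a did (adjusted p = 0.0674). The log2 change of each of the 10 genes was above 0 in all 11 alternatives run, but many of these could not have turned the sign. Alternatives that changed only the filter or the estimate of spread leave the log2 change as it is. Where the groups were separate, neither another pseudocount nor leaving out a library can reverse it. Over all genes the scalings moved the median log2 change by 0.15 (median centring), 0.14 (quantile normalization) and -0.25 (TPM), and the share of lower among all calls, 71.3% as reported, was 45.0, 52.0 and 90.6% in turn.

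**Figure D4:**
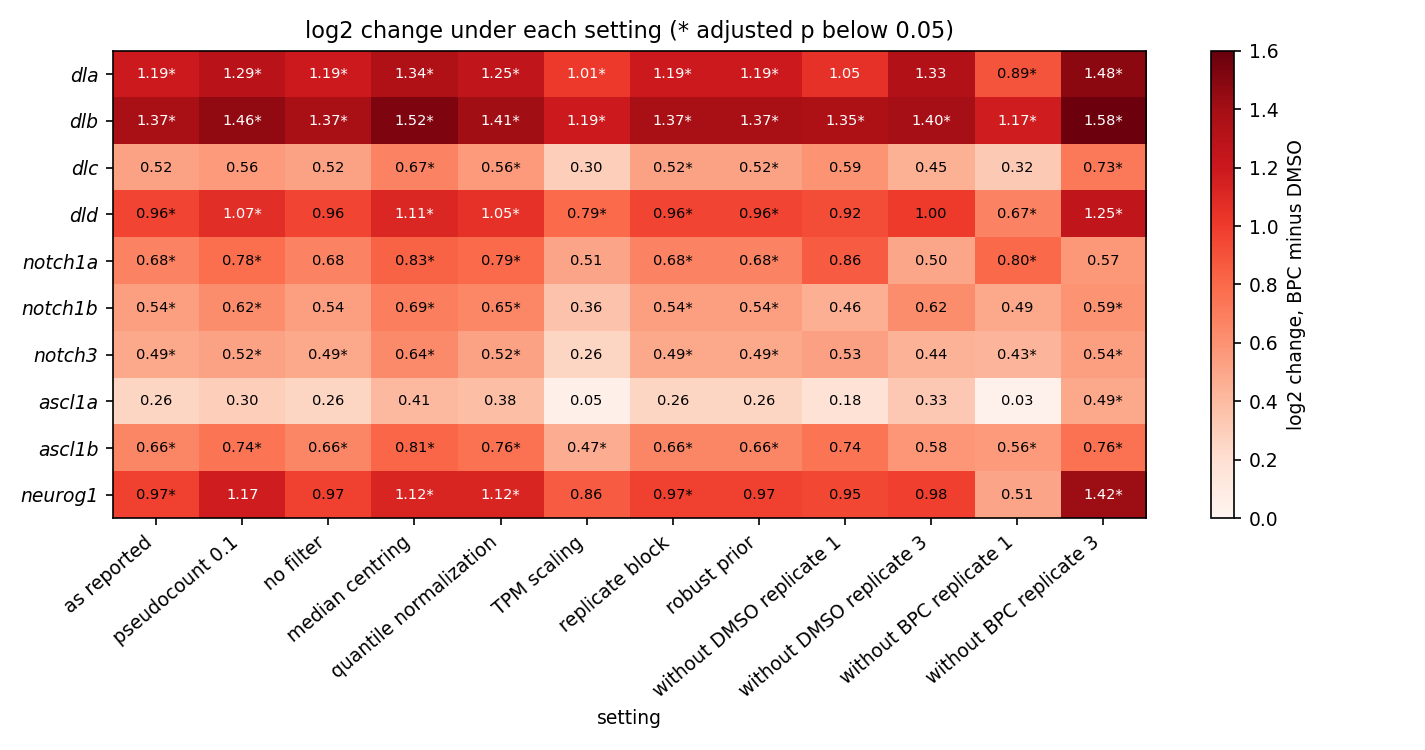
Log2 change, BPC minus DMSO, of each gene (rows) as reported and under the 11 alternatives (columns), as colour and number, with an asterisk where the adjusted p is below 0.05. In the columns that leave out a DMSO library the dlb row alone has an asterisk.

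Among the 11 rows, 9 in the authors' deposited table were higher with a q-value below 0.05, against 9.68% of all 27472 genes. The row of ascl1a had q = 0.177 in that table and the second ascl1b row q = 0.638. The authors' deposited table marks as significant a q-value below 0.05 with a change of at least 2-fold. By that mark dla (2.50-fold), dlb (2.81-fold), dld (2.16-fold) and neurog1 (2.44-fold) were significant and higher, against 1.94% of all genes. Both shares, 9.68 and 1.94%, also count genes below the 0.5 FPKM filter, which 10 of the 11 rows passed. They are thus not shares among genes of like level. In the authors' deposited pathway table for the single pair BPC 3 against DMSO 3, KEGG Notch signalling had 2 of its 58 genes among 424 counted genes of 5689 (p = 0.937). Those 2 genes were dlb and notch1a, with log2 folds of 1.23 and 1.14 in the authors' deposited table for that pair.

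Genes of the her, hes and hey repressor families were measured next. The list holds known Notch targets, such as the her4 copies, and family members that are not simple Notch targets, such as hes6, her9 and her3, the last of which Notch represses in zebrafish. Of 22 tested genes of these families and the feedback genes nrarpa and nrarpb, 11 rose and 0 fell, with a median log2 change of 0.66 against -0.12 for all tested genes. Among all tested genes 7.06% rose and 17.5% fell. The 5 near-identical her4 copies, the main Notch-dependent repressors of the zebrafish nervous system, all rose, with log2 changes from 0.87 to 1.09. Reads shared between these copies make their split uncertain. Hence 5 of the 11 rises may repeat a single signal, and the list's median counts each copy. Summed, they had 50.8 and 36.4 FPKM in BPC, against 18.2 and 21.6 FPKM in DMSO, so that both BPC libraries were above DMSO and BPC 1 was again the highest.

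Other repressors of the list rose as well. The strongest change was that of her13, with 15.0 and 8.98 FPKM in BPC against 3.61 and 4.46 FPKM in DMSO (log2 change 1.33, limma adjusted p = 0.0114). The repressor her8.2 had 8.77 and 7.50 FPKM in BPC, against 3.74 and 4.23 FPKM in DMSO (log2 change 0.87, limma adjusted p = 0.00778), and her15.2 had 3.98 and 3.21 FPKM in BPC, against 1.65 and 1.66 FPKM in DMSO (log2 change 0.79, limma adjusted p = 0.0129). Since her15.2 has a near-identical neighbouring copy, its reads may be split uncertainly too. Some of the more abundant repressors, chosen here after their values were seen, were not called: her6 (15.8 and 16.1 FPKM in BPC, 17.5 and 20.0 in DMSO), her9 (16.6 and 13.0 FPKM in BPC, 17.5 and 18.5 in DMSO) and hey1 (8.70 and 10.1 FPKM in BPC, 9.09 and 8.96 in DMSO, adjusted p = 0.784). Leaving out DMSO 1 left 0 genes of this list called, and leaving out DMSO 3 left 2.

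The remaining ligands and receptors made another list. Of 8 tested genes in a list of Jagged ligands, dll4, notch2 and relatives of Delta, 0 rose and 1 fell, with a median log2 change of -0.053. The shares over all tested genes were 7.06% higher and 17.5% lower. The gene that fell was dner, a neuronal Delta- and Notch-like receptor of differentiated neurons, with 2.53 and 3.54 FPKM in BPC against 6.75 and 5.47 FPKM in DMSO (log2 change -0.82, limma adjusted p = 0.0193). Its call was not kept in every fit that left 1 library out. Chosen after their values were seen, notch2 had 8.51 and 8.94 FPKM in BPC against 9.68 and 9.88 in DMSO, and the vessel ligand dll4 had 1.76 and 1.91 FPKM in BPC against 2.27 and 2.25 in DMSO. Neither was called.

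Few genes that process or modify the pathway were called. Of 25 tested processing and modulator genes, 2 rose and 2 fell (median log2 change 0.019), beside 7.06% higher and 17.5% lower among all tested genes. The rises were those of the Fringe glycosyltransferases lfng and rfng, which tune the response of Notch to its ligands: lfng had 40.7 and 30.9 FPKM in BPC against 19.2 and 18.8 FPKM in DMSO (log2 change 0.87, limma adjusted p = 0.0108). The ubiquitin ligase genes itcha and neurl1aa fell (log2 change -0.90 and -0.46), but neurl1aa was not called whichever single library was left out (limma adjusted p from 0.0538 to 0.287). Of 11 tested genes of the nuclear complex, rbpjb rose (4.16 and 3.80 FPKM in BPC, 2.15 and 2.53 in DMSO, limma adjusted p = 0.0269) and the corepressor gene ncor1 fell (6.86 and 8.94 FPKM in BPC, 11.9 and 12.3 in DMSO, limma adjusted p = 0.0329). The median log2 change of these 11 was 0.016. Calls of lfng, rfng, itcha, rbpjb and ncor1 were not kept in every fit that left 1 library out.

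**Figure D5:**
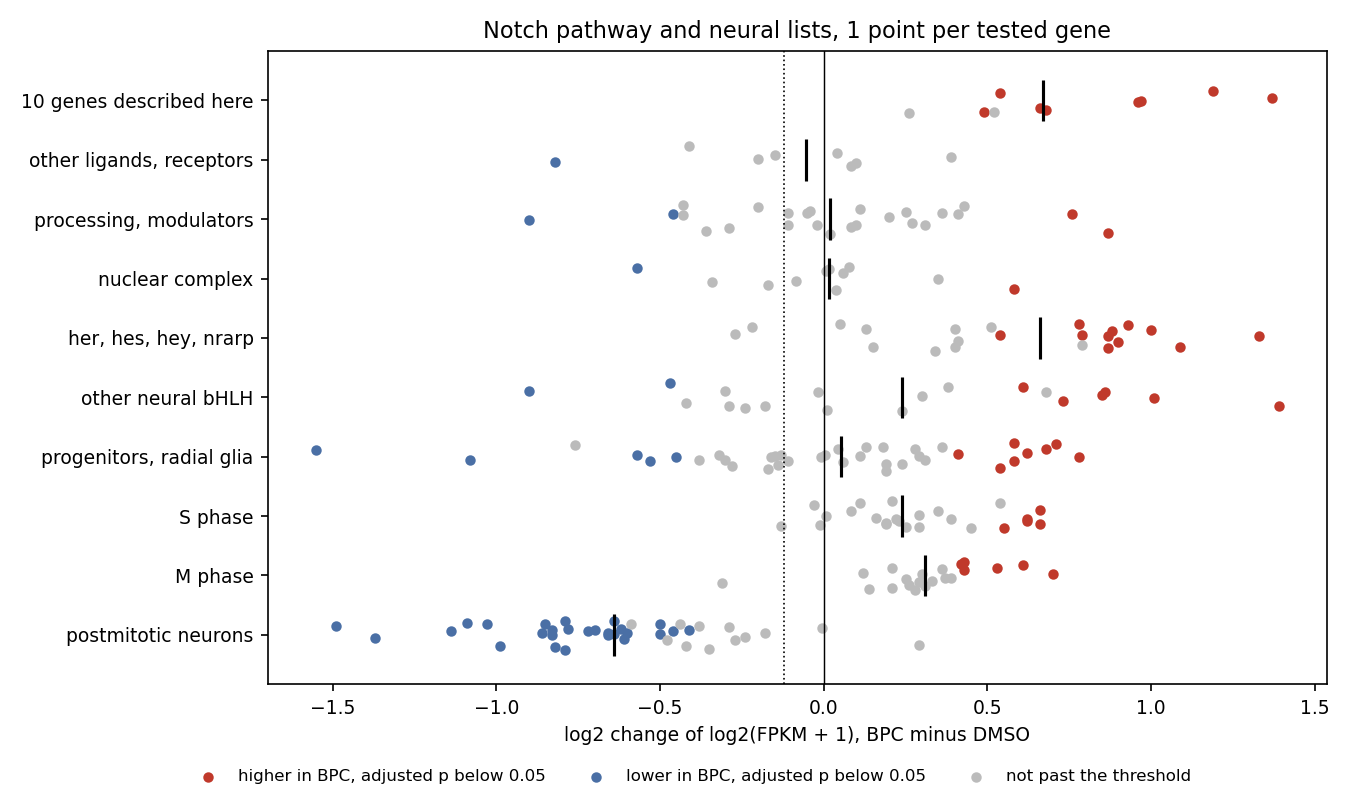
Log2 change of log2(FPKM + 1), BPC minus DMSO (horizontal axis), with 1 point per tested gene of each list (rows) and a bar at the list's median. Red points rose, blue points fell and grey points did not pass the threshold, and the dotted line marks the median over every tested gene. The 10 genes described here (median 0.67) and the her, hes, hey and nrarp genes (0.66) lie to the right, and the postmitotic neuron genes (-0.64) to the left. The median of 0.66 counts each of the 5 near-identical her4 copies.

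Other neural bHLH and differentiation genes were split. Of 19 tested, 6 rose and 2 fell (median log2 change 0.24), beside 7.06% higher and 17.5% lower among all tested genes. The retinal ganglion cell factor atoh7 had 8.88 and 4.29 FPKM in BPC against 1.59 and 1.93 FPKM in DMSO (log2 change 1.39, limma adjusted p = 0.0180), with BPC 1 the highest library, as for neurog1. The early differentiation genes nhlh2 (log2 change 0.86), insm1a (0.61) and ebf2 (1.01) and the motor neuron and oligodendrocyte factor olig2 (0.73) rose too. The later factor neurod1, which follows proneural genes in the nervous system, fell (log2 change -0.90, limma adjusted p = 0.00701). It had 42.7 and 53.0 FPKM in BPC, against 88.6 and 90.3 FPKM in DMSO. Among the neurod genes of the list, only neurod1 was called. Log2 changes of the rest went both ways: 0.30 for neurod4, 0.24 for neurod6b, -0.29 for neurod2 and -0.30 for neurod6a. The other fall was that of insm1b, the paralogue of insm1a (log2 change -0.47, limma adjusted p = 0.0277). It had 9.29 and 10.2 FPKM in BPC against 13.6 and 14.3 FPKM in DMSO. With every library kept, paralogues of an early differentiation gene were thus called in opposite directions. Calls of atoh7, nhlh2, insm1a, ebf2, olig2 and neurod1 were not kept in every fit that left 1 library out. How the call of insm1b fared in these fits is not given here.

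Markers of progenitors and of neurons were read beside these genes, since the libraries hold many tissues. For comparison, 7.06% of all tested genes rose and 17.5% fell. Of 38 tested progenitor and radial glia genes, 8 rose and 5 fell (median log2 change 0.053, or -0.19 with TPM and 0.20 with median centring). Their FPKM summed to 948 and 1028 in BPC, against 1086 and 1123 in DMSO. Of this sum fabp7a alone gave 251 and 312 FPKM in BPC and 418 and 412 FPKM in DMSO. Its mean fell by more than the mean of the whole sum did, so the lower sum does not show a fall of the other genes. The neural progenitor factors sox3 (36.4 and 26.9 FPKM in BPC, 17.1 and 18.7 in DMSO) and sox19a (27.7 and 22.9 FPKM in BPC, 14.6 and 16.2 in DMSO) rose, as did vim and hes6. The falls included radial glia genes as well as eye genes, but not every radial glia gene fell. The transporter gene slc1a3a rose (22.4 and 16.5 FPKM in BPC, 11.3 and 11.5 in DMSO, limma adjusted p = 0.0226). The genes gfap (log2 change -0.28), slc1a3b (-0.13) and slc1a2b (-0.32) had changes below 0 and were not called. The radial glia gene fabp7a was called lower (limma adjusted p = 0.0343). The glutamine synthetase gene glula fell as well, with 44.4 and 52.3 FPKM in BPC against 68.0 and 64.2 FPKM in DMSO (limma adjusted p = 0.0390). The photoreceptor disc gene prom1a, the retinal factor rx1 and the forebrain and eye factor six3b fell too. Of the whole progenitor and radial glia list, prom1a and rx1 had the smallest p. The log2 change of prom1a was -1.55 (0.977 and 1.09 FPKM in BPC, 5.12 and 4.76 in DMSO, limma adjusted p = 0.00191). That of rx1 was -1.08 (1.70 and 1.92 FPKM in BPC, 5.23 and 4.62 in DMSO, limma adjusted p = 0.00470). Of 39 tested postmitotic neuron genes, 0 rose and 27 fell (median log2 change -0.64), atp1a3b, map1b, slc6a5, stmn2a, gad2 and nefma having the smallest p among them. Their FPKM summed to 1137 and 1413 in BPC, against 1878 and 1831 in DMSO. The early neuron genes elavl3 and stmn1b, chosen after their values were seen, were not called, with 60.9 and 65.3 FPKM in BPC against 72.9 and 76.3 in DMSO for elavl3, and 160 and 154 FPKM in BPC against 152 and 163 in DMSO for stmn1b. Calls of sox3, sox19a, vim, hes6, rx1, map1b, slc6a5, stmn2a, gad2 and nefma were not kept in every fit that left 1 library out. Those of prom1a and atp1a3b were. No marker of either list was at 0 in all libraries. The part of cell make-up in the higher Delta and Notch values was not tested.

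Cell cycle genes were higher in part. Among all tested genes, 7.06% were called higher and 17.5% lower. Of 24 tested S phase genes, 5 rose and 0 fell (median log2 change 0.24), among them mcm7 (28.4 and 28.6 FPKM in BPC, 18.0 and 18.3 in DMSO) and cdc45. Of 21 tested M phase genes, 6 rose and 0 fell (median 0.31), among them kif11 (31.6 and 26.3 FPKM in BPC, 18.3 and 18.9 in DMSO) and aurkb. With TPM scaling the medians were 0.0053 and 0.085. The number called higher ranged from 0 to 13 for S phase and from 0 to 14 for M phase genes with 1 library left out, and from 1 to 8 and from 1 to 12 under the alternatives that kept every library. Their part in the changes of the Notch genes was not tested.

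Markers of other cells that use Delta and Notch genes were measured as well. Their counts stand beside 7.06% of all tested genes called higher and 17.5% called lower. Of 7 tested hair cell genes, 0 rose and 2, myo7aa and otofa, fell (summed FPKM 42.5 and 52.2 in BPC, 59.4 and 64.2 in DMSO). Leaving out any single library ended the call of myo7aa (limma adjusted p from 0.0604 to 0.224), and the number of hair cell genes called lower ranged from 0 to 6 over the alternatives. Of 12 tested pancreatic and gut endocrine genes, 0 rose and 5 fell (summed FPKM 133 and 153 in BPC, 219 and 214 in DMSO). The falls were those of the gut hormone gene pyyb and of vipb, neurod1, isl1 and scg3, which neurons also express. Of the summed level, neurod1 alone gave 42.7 and 53.0 FPKM in BPC and 88.6 and 90.3 FPKM in DMSO. The hormone genes ins, gcga, gcgb and sst2 were not called. Of 9 endothelial genes, 0 rose and 0 fell (9 genes tested with limma, summed FPKM 40.7 and 34.7 in BPC, 34.4 and 37.0 in DMSO); the smallest unadjusted p was that of pecam1, 0.0646. The vessel genes cdh5 (8.61 and 7.25 FPKM in BPC, 6.76 and 7.01 in DMSO) and fli1a (10.3 and 10.1 FPKM in BPC, 10.4 and 11.7 in DMSO) had the highest levels of that list. Of 6 tested genes of multiciliated cells, 0 rose and 1, tekt1, fell (summed FPKM 12.0 and 10.3 in BPC, 10.0 and 10.0 in DMSO), and tekt1 was not called whichever single library was left out (limma adjusted p from 0.0564 to 0.221).

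For the presomitic mesoderm, where dlc and dld act in the somite clock earlier in development, 3 of 7 matched markers passed the filter. Of these, tbxta (2.14 and 2.41 FPKM in BPC, 1.07 and 1.38 in DMSO) and ripply1 (1.37 and 1.09 FPKM in BPC, 0.498 and 0.645 in DMSO) rose and 0 fell. Among all tested genes 7.06% rose and 17.5% fell. The remaining marker, tbx6, went the other way and was not called (log2 change -0.46, limma adjusted p = 0.0573). It had 0.780 and 1.04 FPKM in BPC against 1.61 and 1.62 FPKM in DMSO. Leaving out any single library ended the call of tbxta (limma adjusted p from 0.0565 to 0.239), that of ripply1 was kept only without BPC 3 (0.0483), and neither was called with TPM scaling or with no filter. The markers mespab, msgn1, ripply2 and tbx16 were below the filter and were not tested. Summed, the 7 had 4.51 and 4.58 FPKM in BPC, against 3.32 and 3.83 FPKM in DMSO, well under the levels of dlc and dld. The clock repressor her1 was listed at 0 in all 4 libraries, and her7 at 0 and 0 FPKM in BPC and at 0.343 and 0.0344 FPKM in DMSO. The part of each of these cell types in the values of the 10 genes was not tested.

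Genes with the most similar pattern were sought for the most abundant gene of each role, by the distance between the 4 values of log2(FPKM + 1), each gene centred on its own mean, among 7924 genes. Closest to dlb were eef2k (distance 0.0663), nme3 (0.0724) and rsl24d1 (0.0830). Closest to notch3 were a connexin gene listed as cx30 (0.0182), elof1 (0.0199) and myh9a (0.0288), and closest to ascl1b were eno3, pof1b and the ribosomal protein gene rps13 (0.0420 to 0.0424). The 4 libraries fall in 2 groups, so a distance over them is a description only.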

How the data were processed

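Per the file headers, the deposited values are FPKM, 1 for each of 27472 genes in each library. Per the submitters' processing notes, tools included edgeR, DESeq2, StringTie 1.3.4d, HISAT2 2.0.4 and cutadapt 1.9, listed without roles. A genome build or annotation is not given in the sources used. Per the labels' protocols, polyadenylated RNA was made into paired-end libraries with a dUTP-marked second strand, and use of the strand in counting is not stated. The authors' deposited table also holds a fold (the ratio of mean FPKM values), its log2, a p-value and a q-value per gene, and a second deposited table gives gene numbers and a p-value per KEGG pathway for BPC 3 against DMSO 3. Depth is unknown, since no read totals come with the FPKM values and their low end has no common step. FPKM totals were 422245 and 425611 in BPC and 355583 and 355364 in DMSO.

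A gene was tested if 2 or more libraries reached 0.5 FPKM (19873 genes). Values of log2(FPKM + 1) were fitted by group alone in limma 3.58.1 (R 4.3.3) with an intensity trend and Benjamini-Hochberg adjustment over the tested genes (two-sided, threshold 0.05). The fitted prior had 4.47 degrees of freedom beside 2 residual ones. The scale understates changes of low genes. The fit was also run on simulated data, with spread taken from the fit itself and changes drawn up and down alike. Since 71.3% of the calls here were lower, that run does not bear on them. The members and lists were chosen with earlier results of these data known. Of 299 list entries, 266 were matched by the file's symbol and 11 by a table of Ensembl IDs and symbols. The 4 that fit several IDs (ebf3a, cx43, rrm2 and ube2c) and 18 with no ID were left out, and 6 entries stand in more than 1 list. Every member was named, and of each list up to 6 called genes with the smallest p, or else the 2 with the highest level (for the endothelial list, cdh5 and fli1a). Alternatives were a pseudocount of 0.1, no filter, median centring, quantile normalization, TPM scaling, a robust prior, a replicate block and leaving out each library.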

Additional observations from a re-analysis of the deposited data

How the results depend on the processing

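The log2 changes of the 10 genes were above 0 in all 110 refits, of which 56 of 70 that kept every library, and 21 of 40 that left 1 out, stayed on the same side of the threshold. Many of these refits could not have turned the sign. No filter, the robust prior and the replicate block leave the log2 change as it is. Where the groups were separate, neither another pseudocount nor leaving out a library can reverse it. TPM scaling gave 759 higher and 7286 lower genes over all (1404 and 3480 as reported) and 4 members called. The log2 changes were then 0.51 for notch1a, 0.36 for notch1b, 0.26 for notch3 and 0.86 for neurog1, none of them called. With no filter 748 genes were higher, 2020 lower and 4 members called, and dld (0.96), notch1a (0.68), notch1b (0.54) and neurog1 (0.97) lost their calls among 26929 tested genes. Median centring gave 2441 higher and 1997 lower genes, and quantile normalization 2111 lower. The dlc call was gained with median centring (0.67), quantile normalization (0.56), the robust prior (0.52) and the replicate block (0.52). The neurog1 call was lost with a pseudocount of 0.1 (1.17) and the robust prior (0.97). With 1 library left out, the ranges were 149 to 2040 higher genes, 452 to 3983 lower genes and 1 to 9 members called (0 lower throughout). The log2 changes then ranged from 0.89 to 1.48 for dla, 1.17 to 1.58 for dlb, 0.32 to 0.73 for dlc, 0.67 to 1.25 for dld, 0.50 to 0.86 for notch1a, 0.46 to 0.62 for notch1b, 0.43 to 0.54 for notch3, 0.032 to 0.49 for ascl1a, 0.56 to 0.76 for ascl1b and 0.51 to 1.42 for neurog1. A fit without 1 library has fewer samples, and the lone library is taken to vary like the other group. The replicate block gave 1333 higher and 3282 lower genes and changed no member call but that of dlc (adjusted p = 0.0329). The labels do not say that a number pairs libraries, and deviations of same-numbered libraries correlated at 0.00805 across genes. For the lists, the number called higher ranged over all alternatives from 0 to 16 for her, hes, hey and nrarp genes, 0 to 5 for processing genes, 0 to 8 for other neural bHLH genes and 0 to 10 for progenitor genes, and the number lower from 2 to 37 for neuron genes and 0 to 8 for processing genes. Median signs of the processing, nuclear complex, progenitor and remaining ligand lists changed with scaling. The median of the other neural bHLH list was -0.0022 with TPM scaling. The causes were not tested. Depth is unknown, so what read number limits cannot be given.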

Other observations

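The annotation in the deposited table groups the pathway in another way, but it shares most of its called genes with the lists above. Without the 6 members it holds, the GO term for the Notch signalling pathway had 66 tested genes, of which 15 rose and 0 fell (limma, adjusted over all tested genes; 7.06 and 17.5% of all tested genes rose and fell), with a median log2 change of 0.12 against -0.12 for all genes. Most of the 15 were counted above already: the called her genes with the her4 copies, hes6, lfng, nrarpb and rbpjb. They are thus no separate support. The rest were a clone-named gene and the circadian repressor bhlhe40. The latter had 18.6 and 16.3 FPKM in BPC against 7.00 and 8.30 FPKM in DMSO (log2 change 1.09, limma adjusted p = 0.00429). The KEGG Notch pathway without its 7 members had 49 tested genes, of which 6 rose and 3 fell (median log2 change -0.080). The corepressor genes hdac1 (69.5 and 62.5 FPKM in BPC, 45.5 and 50.2 in DMSO, log2 change 0.45) and ctbp1 (0.36) rose, and dvl1a, dvl1b and kat2a fell. These 6 genes were chosen after their values were seen.

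Oligodendrocyte lineage genes went both ways. Of 9 tested, 2 rose and 3 fell (median log2 change -0.20), beside 7.06% higher and 17.5% lower among all tested genes. The lineage factor olig2 had 9.76 and 9.68 FPKM in BPC, against 4.80 and 6.24 FPKM in DMSO, and plp1a had 14.7 and 6.93 FPKM in BPC, against 2.49 and 2.77 FPKM in DMSO (log2 change 1.62, limma adjusted p = 0.0135). The myelin genes mbpa (0.280 and 1.12 FPKM in BPC, 7.41 and 6.32 in DMSO), mpz and plp1b fell. All 3 of these falls were called whichever single library was left out, which held for neither rise.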
